A study of Mus musculus with 5 samples.

Results

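The 40 genes described here encode nucleolar proteins that make ribosomes. They are a fixed list of gene symbols, chosen with earlier results of these data known and without a threshold on expression. All 40 were found among the 29267 genes measured by RNA sequencing. The libraries came from mouse embryonic fibroblasts (ICR strain) in the course of reprogramming, with 1 library in each of 5 groups. At day 8 there were cells given mastoparan, a wasp-venom peptide, cells given paraquat, a redox-cycling herbicide, and a control with neither. At day 4 there were cells expressing CypD, the mitochondrial cyclophilin D encoded by Ppif, and cells expressing Flag as their control. The genotype label also gives CypD expression to the 3 day-8 libraries, while the design text does not. The sources used here give no doses, introduced reprogramming factors or number of embryos behind a culture. The series title asks which genes respond to the mitoflash, a brief burst of superoxide signal in a mitochondrion. With 1 library per group no difference below has a replicate check, there is no test between conditions, and the 95% intervals cover counting error only.

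Ribosomes are built in the nucleolus. RNA polymerase I transcribes the precursor of the large ribosomal RNAs, small nucleolar ribonucleoproteins (snoRNPs) guide its chemical modification, and assembly factors fold, cut and package it into the small and large subunits. The work is costly for a cell and follows growth, so the genes are much expressed in dividing fibroblasts and embryonic cells. Many of them are known targets of the transcription factor Myc, which is among the factors commonly used in reprogramming and binds the E-box, CACGTG.

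Of the 40 genes, 36 have a promoter in the RefSeq table of GRCm38.p6, 44 promoters in all, each running from 250 bases before the annotated start to 50 after it. Those of Npm1, Fbl, Bop1 and Rrp12 are not shown. The E-box CACGTG, which reads the same on both strands, was in 8 of the 44 promoters (18.2%), from 8 genes, against 7.15% of all 32851 promoters. Those genes were Ltv1, Mybbp1a, Nop2, Pes1, Rrn3, Utp18, Utp20 and Wdr43. The GC box GGGCGG, searched on both strands, was in 72.7% against 35.7% of all promoters, and the CCAAT box CCAAT, also on both strands, in 34.1% against 37.4%. Other ribosome biogenesis genes, a list described below, had 90 promoters. The E-box was in 15 of them (16.7%), the GC box in 58.9% and the CCAAT box in 37.8%, so the E-box share was close to that of the 40 genes. No one of the motifs contains another, and a match of letters is not a binding site. The 3 promoters whose E-box lies upstream of the start are printed first, those of Rrn3 (chr16:13780449-13780748, plus strand), Nop2 (chr6:125131633-125131932, plus strand) and Utp18 (chr11:93885717-93886016, minus strand). That of Heatr1 (chr13:12395125-12395424, plus strand), which holds no E-box, follows because its gene had the largest day difference of those with a promoter. Capitals mark the E-box, which begins at -215 and -48 from the start in Rrn3, at -60 in Nop2 and at -20 in Utp18.
Rrn3: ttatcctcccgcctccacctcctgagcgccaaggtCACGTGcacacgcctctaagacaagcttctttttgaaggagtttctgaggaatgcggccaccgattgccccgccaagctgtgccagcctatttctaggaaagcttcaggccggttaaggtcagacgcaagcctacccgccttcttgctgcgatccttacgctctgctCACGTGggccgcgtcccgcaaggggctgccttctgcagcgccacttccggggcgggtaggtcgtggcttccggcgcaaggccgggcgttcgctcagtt
Nop2: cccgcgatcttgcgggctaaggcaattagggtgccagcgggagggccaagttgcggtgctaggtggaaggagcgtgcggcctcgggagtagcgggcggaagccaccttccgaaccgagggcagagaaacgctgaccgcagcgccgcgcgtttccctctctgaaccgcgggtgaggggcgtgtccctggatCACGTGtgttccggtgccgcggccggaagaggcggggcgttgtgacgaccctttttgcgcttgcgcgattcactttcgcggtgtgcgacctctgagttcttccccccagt
Utp18: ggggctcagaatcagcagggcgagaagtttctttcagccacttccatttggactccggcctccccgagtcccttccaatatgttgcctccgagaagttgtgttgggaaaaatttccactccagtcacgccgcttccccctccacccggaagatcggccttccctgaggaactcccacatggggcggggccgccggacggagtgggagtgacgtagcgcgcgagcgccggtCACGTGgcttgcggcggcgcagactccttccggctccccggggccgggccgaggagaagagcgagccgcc
Heatr1: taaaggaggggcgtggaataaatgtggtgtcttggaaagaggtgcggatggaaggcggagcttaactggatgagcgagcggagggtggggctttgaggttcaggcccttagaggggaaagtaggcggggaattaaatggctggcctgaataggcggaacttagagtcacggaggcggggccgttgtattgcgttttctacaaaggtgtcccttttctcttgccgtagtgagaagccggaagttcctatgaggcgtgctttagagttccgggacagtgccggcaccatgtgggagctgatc

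The total expected count per library ranged from 2426015 (paraquat) to 3426702 (CypD). Levels are given as CPM, counts per 1000000 of the library after TMM scaling. Ppif had 95, 79 and 90 counts in the mastoparan, paraquat and control libraries at day 8, and 2629 and 112 in the CypD and Flag libraries at day 4. The CypD label thus matched Ppif at day 4, while the genotype label of the day-8 libraries did not. The 10 fibroblast markers, among them Vim, Col1a1 and Fn1, were detected in every library, at a summed level of 6558 to 6865 CPM at day 8 and 7001 to 7096 at day 4. Singly they differed between days, with log2 ratios from -1.76 to 0.96 in the day-8 control against Flag. In 5 all 3 day-8 libraries lay below both day-4 libraries, and in 3 above (28.1% and 28.5% of all genes). The 5 epithelial markers (Cdh1, Epcam, Krt8, Krt18 and Krt19) summed to 622, 707 and 622 CPM in the mastoparan, paraquat and control libraries, against 190.3 in CypD and 207 in Flag. The 7 pluripotency markers summed to 3862, 2400 and 4026 CPM at day 8 and to 2919 in CypD and 3452 in Flag, nearly all of it Pou5f1 and Sox2, and Lin28a was at 0 counts in all 5 libraries. The 3 leukocyte markers summed to 14.4, 13.4 and 17.2 CPM at day 8, against 8.69 in CypD and 6.31 in Flag, with Ptprc at 1 count at most and Cd68 at 39, 31 and 53 counts at day 8 and 26 and 13 at day 4. The 3 endothelial markers summed to 5.61, 2.17 and 0.649 CPM at day 8 and 2.32 and 1.97 at day 4, with Cdh5 at 0 in all 5 libraries and Pecam1 at 15, 4 and 2 counts at day 8 and 8 and 3 at day 4. The part of these cells in the ratios below was not tested.

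All 40 genes had at least 1 CPM on average and were measured in every comparison. Their deposited TPM, a level per transcript length, spanned from 7.84 for Heatr1 to 3970.4 for Npm1 as a mean over the 5 libraries. Together they took 0.894% of the counts of the mastoparan library (95% exact Clopper-Pearson interval 0.883 to 0.905), 0.845% of the paraquat library (0.833 to 0.856) and 0.843% of the control at day 8 (0.832 to 0.853). At day 4 they took 1.22% in CypD (1.20 to 1.23) and 1.19% in Flag (1.18 to 1.20). The 3 day-8 libraries were thus low and close to one another, and both day-4 libraries high, with no overlap.

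**Figure D1:**
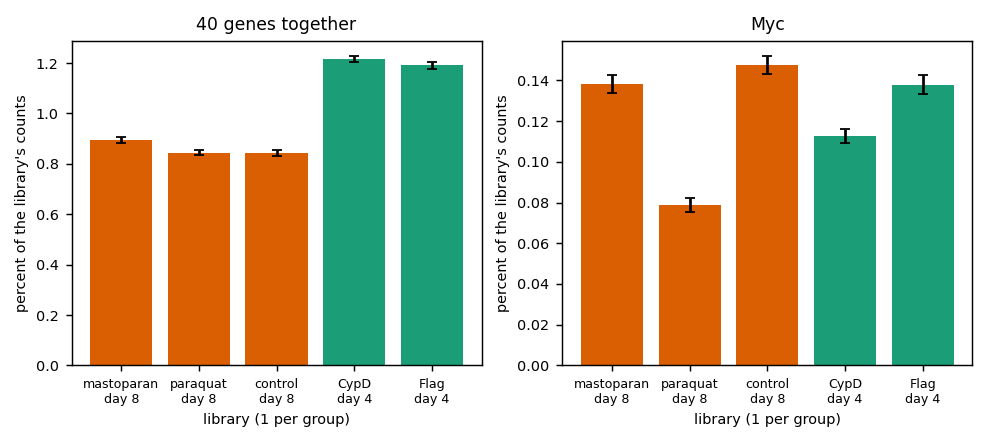
Percent of each library's counts taken by the 40 genes together (left) and by Myc (right), with 1 library per bar and 95% exact intervals for counting error. The 40 genes stand at 0.843% to 0.894% at day 8 and at 1.19% to 1.22% at day 4, while Myc is lowest in the paraquat library at 0.0786%.

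All 40 genes were lower in the day-8 control than in the day-4 Flag library, against 49.7% of all genes tested, although Rrp1b was higher on deposited TPM. Their log2 ratio of scaled CPM had a median of -0.66, and ran from -1.67 for Rrp12 to -0.02 for Nop16. The median over all 13584 genes tested was 0.00. At least 1.5-fold lower were 24 of the 40, against 12.8% of all genes, and 0 were 1.5-fold higher, against 19% of all genes. For 36 the counting interval lay below no difference (18.8% of all genes). In 35 all 3 day-8 libraries lay below both day-4 libraries (28.1% of all genes), and Polr1c, Nhp2, Nop10, Utp18 and Nop16 were the exceptions. As alternatives chosen after seeing the data, the median was -0.65 with CypD in place of Flag, -0.57 with mastoparan in place of the control and -0.70 with paraquat in its place, with 25, 20 and 25 genes at least 1.5-fold lower (11.4%, 13.3% and 19.3% of all genes) and 39, 39 and 36 below 0 (49%, 49.9% and 51% of all genes). The summed counts of the list were 1.42 times lower in the day-8 control than in Flag (1.40 to 1.45), and 1.55 times lower (1.51 to 1.58) without Npm1 and Ncl, the genes with the highest levels of the list.

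Other features moved between the same libraries. All 15 cell cycle genes, on a list also chosen with earlier results known, were lower too in the day-8 control (49.7% of all genes). Their median log2 ratio was -0.85, and they summed to 2182, 2082 and 2077 CPM in mastoparan, paraquat and control against 3408 in CypD and 3431 in Flag. For all 5 epithelial markers the 3 day-8 libraries lay above both day-4 libraries (28.5% of all genes), and fibroblast markers went both ways, as given above. Their part in the day difference of the ribosome genes was not tested. Day, construct label and culture differ together between these libraries and cannot be told apart. In bulk RNA, fewer cells that express a gene and less of its RNA per cell cannot be told apart either.

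**Figure D2:**
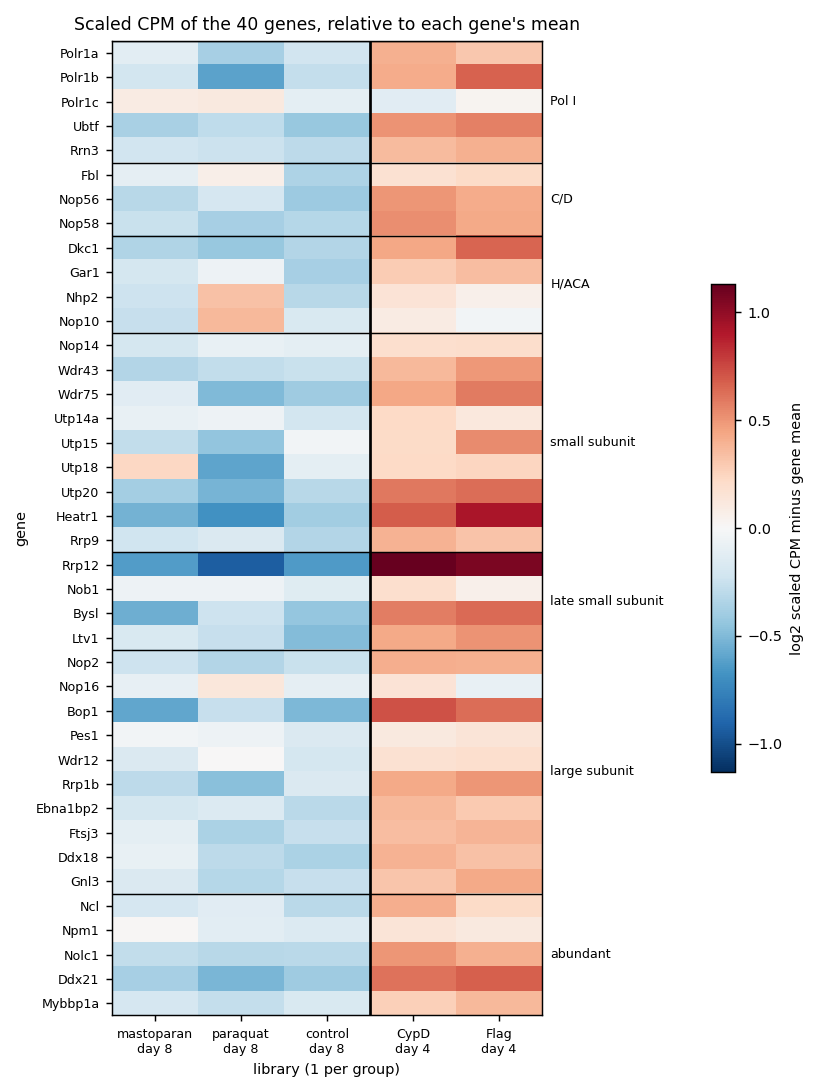
log2 scaled CPM of each of the 40 genes (rows, by role) in each library (columns), minus the gene's mean over the 5 libraries, with red above and blue below that mean. The 2 day-4 columns on the right are red for nearly every gene. Among the red cells at day 8 are Nhp2, Nop10, Nop16 and Fbl in the paraquat column. Utp18 is red in the mastoparan column and Polr1c in both treated columns.

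Within a day the ratios lay closer to 0. In CypD against Flag the median log2 ratio of the list was -0.03, against -0.02 over 13244 genes. There were 17 genes above and 23 below 0 (47% and 53% of all genes), and 0 passed 1.5-fold in either direction, against 5.22% higher and 5.75% lower among all genes. The counting interval lay above no difference for Ncl and Nop16 and below it for Dkc1 (4.13% and 4.19% of all genes). In mastoparan against control the median was 0.07, against 0.01 over 13651 genes, with 29 genes above and 11 below 0 (50.9% and 49.1% of all genes). The number below 0 was 15 with library totals alone and 19 on deposited TPM, where the median was 0.018. Again 0 passed 1.5-fold (5.01% higher and 5.87% lower among all genes). The 6 genes with an interval above no difference (4.01% of all genes) were Fbl, Utp18, Ddx18, Polr1c, Npm1 and Ncl, at 1.08-fold to 1.27-fold higher in the mastoparan library.

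In paraquat against control the median was 0.04, against -0.03 for all genes, but its sign depended on the scaling and it was -0.06 with library totals alone. There were 22 genes above and 18 below 0 (47.4% and 52.5% of all genes), and 17 above and 23 below with library totals alone. Nhp2 alone was at least 1.5-fold higher and 0 were lower, against 8.15% and 10.5% of all genes, while with library totals alone 0 were higher and Utp18 was lower. The interval lay above no difference for 8 genes and below it for Utp18 (11.2% and 9.77% of all genes). In mastoparan against paraquat 22 genes lay above and 18 below 0 (52.1% and 47.8% of all genes), with intervals above no difference for 5 and below it for 6 (8.89% and 10.3%). The number below 0 was 10 with library totals alone, where the median was 0.11, and 9 on deposited TPM. With TMM scaling 1 gene was at least 1.5-fold higher in mastoparan than in paraquat, Utp18, and 1 lower, Nop10 (9.54% and 7.54% of all genes). The mastoparan and paraquat comparisons share the control library, so their values are not independent.

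**Figure D3:**
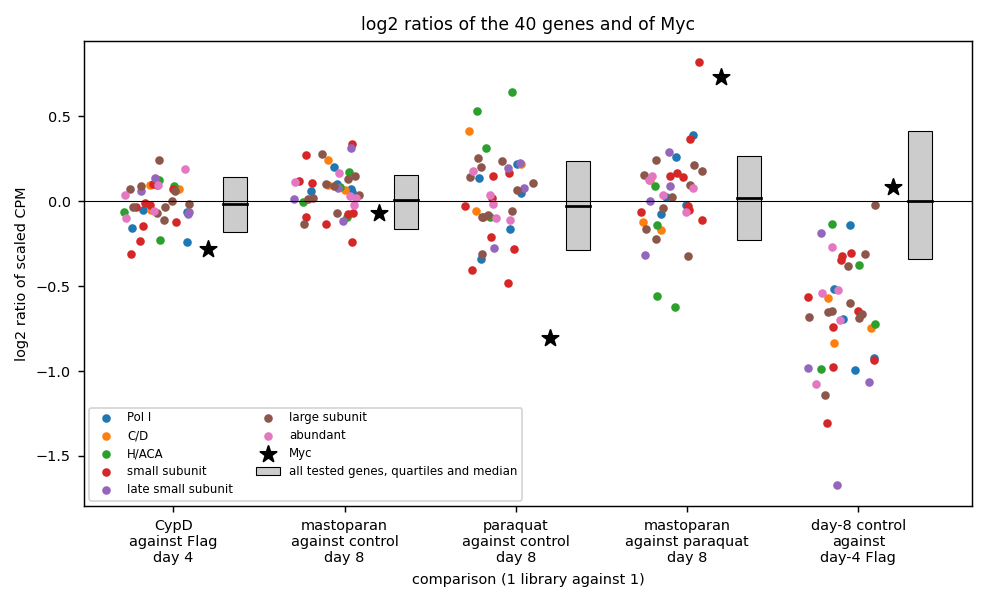
log2 ratio of scaled CPM for the 40 genes (dots coloured by role) and Myc (star) in 5 comparisons of 1 library with 1, beside the quartiles and median of all tested genes (grey box). The dots lie around 0 in the 4 comparisons within a day and all below 0, with a median of -0.66, in the day-8 control against day-4 Flag.

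Of the 5 genes of ribosomal RNA transcription, all were lower in the day-8 control than in Flag (49.7% of all genes). Their median log2 ratio was -0.69. Polr1a, the largest subunit of RNA polymerase I, had 73.3, 61.1 and 68.4 CPM in the mastoparan, paraquat and control libraries at day 8, and 105 and 98.3 in CypD and Flag at day 4. Polr1b, the second-largest subunit, had 50.2, 38.1 and 48.3 CPM at day 8 in the same order, and 77.9 and 91.9 at day 4. The days did not overlap for these subunits, and the paraquat library was the lowest for each. In paraquat against control both intervals held no difference, with Polr1a 1.12 times lower (0.901 to 1.40) and Polr1b 1.27 times lower (0.967 to 1.67). Polr1b was 1.90 times lower in the day-8 control than in Flag (1.54 to 2.35), and 1.32-fold higher in mastoparan than in paraquat (1.00 to 1.74). Polr1c, a subunit that RNA polymerases I and III share, had 162, 164 and 141 CPM at day 8 and 139 and 155 at day 4, so its days overlapped. Ubtf, which binds ribosomal gene promoters, was 1.99 times lower in the day-8 control than in Flag (1.77 to 2.25). Rrn3, the factor that recruits the polymerase and whose promoter with 2 E-boxes is printed above, was 1.62 times lower (1.30 to 2.02).

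The box C/D snoRNPs carry out ribose methylation. Their 3 core proteins were lower in the day-8 control than in Flag (49.7% of all genes), with a median of -0.75. Nop56 had 384, 418 and 359 CPM in mastoparan, paraquat and control, and 674 and 640.1 in CypD and Flag, which is 1.78 times lower in the control than in Flag (1.65 to 1.93). Nop58, its partner, had 164, 150.3 and 156 CPM at day 8 and 281 and 263 at day 4 (1.68 times lower, 1.49 to 1.89). Fbl, the methyltransferase itself, had 389, 438 and 328 CPM at day 8 and 469.7 and 487 at day 4. It was higher than the day-8 control in both treated libraries, 1.19-fold in mastoparan (1.09 to 1.29) and 1.34-fold in paraquat (1.22 to 1.46). However, 70.8% of its 49-base sequence windows are found in another gene as well, with Tulp4 sharing the most, so the Fbl counts are uncertain. Tulp4 had a log2 ratio of -0.02 in mastoparan and -0.06 in paraquat against control.

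The box H/ACA snoRNPs convert uridine to pseudouridine. Their 4 proteins had a median of -0.55 between days, and one of 0.42 in paraquat against control, the highest of the 7 role groups. Nhp2, an RNA-binding core protein, had 222, 327 and 209.5 CPM in mastoparan, paraquat and control at day 8, and 289 and 272 in CypD and Flag. Nop10, the smallest core protein, had 147, 227 and 157 CPM at day 8 and 188 and 172 at day 4. For both, the paraquat library was the highest of all 5, so the days overlapped. Nhp2 was 1.56-fold higher in paraquat than in control (1.40 to 1.74) and Nop10 1.45-fold higher (1.28 to 1.64). Gar1 had 66.0, 72.8 and 58.4 CPM at day 8 and 92.4 and 96.7 at day 4, which is 1.25-fold higher in paraquat than in control (1.00 to 1.55). With the trend along transcript length removed, as given below, the paraquat ratios of Nhp2 and Nop10 were smaller and that of Gar1 changed sign. The role groups were not ranked without that trend. Dkc1, the pseudouridine synthase, had a log2 ratio of -0.10 in paraquat against control, and it was 1.99 times lower in the day-8 control than in Flag (1.68 to 2.36).

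The small-subunit processome is the particle that forms on new precursor RNA. Its 9 genes were all lower in the day-8 control than in Flag (49.7% of all genes), with a median of -0.65. All 9 intervals lay below no difference (18.8% of all genes). Heatr1, part of the subcomplex that binds the RNA first, had 63, 46 and 75 counts in mastoparan, paraquat and control, and 178 and 154 in CypD and Flag. It was 2.50 times lower in the day-8 control than in Flag (1.88 to 3.34), and no day-8 library came near the day-4 ones. Wdr75 and Utp15 belong to the same subcomplex. Wdr75 had 56.5, 43.8 and 46.7 CPM at day 8 and 83.4 and 92.3 at day 4 (1.98 times lower, 1.60 to 2.45). Utp15 had 30.2, 26.9 and 35.7 CPM at day 8 and 42.6 and 52.9 at day 4 (1.48 times lower, 1.14 to 1.93).

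Utp18, another processome protein, was the gene on which the treated libraries differed most. It had 193, 88 and 165 counts, or 67.7, 38.1 and 53.5 CPM, in mastoparan, paraquat and control, and 67.2 and 68.3 CPM in CypD and Flag. The mastoparan library lay at the day-4 level and the paraquat library was the lowest of the 5. Utp18 was 1.78-fold higher in mastoparan than in paraquat (1.37 to 2.31), 1.27-fold higher in mastoparan than in control (1.02 to 1.57) and 1.40 times lower in paraquat than in control (1.08 to 1.84). Utp20, Wdr43, Nop14, Utp14a and Rrp9, which binds the U3 snoRNA, had log2 ratios between -0.21 and 0.17 in paraquat against control. Part of Utp14a (11.5% of its exon bases) overlaps exons of another gene, and the kit did not mark strand.

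Late maturation of the small subunit held the gene with the largest day difference. Rrp12, known in yeast for the export of pre-ribosomes, had 41, 27 and 44 counts in mastoparan, paraquat and control, and 168 and 118 in CypD and Flag. It was 3.26 times lower in the day-8 control than in Flag (2.29 to 4.72). Bysl, an assembly factor of the small subunit, had 29.8, 37.3 and 32.4 CPM at day 8 and 65.4 and 68.3 at day 4 (2.11 times lower, 1.64 to 2.72). Ltv1, another assembly factor, had 42.5, 39.9 and 34.1 CPM at day 8 and 64.3 and 67.9 at day 4 (1.99 times lower, 1.56 to 2.57). Nob1, the nuclease that makes the final cut of 18S RNA, had 115, 115 and 109 CPM at day 8 and 136 and 124 at day 4. Its interval between days held no difference (1.14 times lower, 0.975 to 1.33). Of the exon bases of Bysl, 9.37% overlap Ccnd3, which had a log2 ratio of 0.45 in the day-8 control against Flag.

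All 10 genes of large-subunit assembly were lower in the day-8 control than in Flag (median -0.65), 7 of them by 1.5-fold or more (49.7% and 12.8% of all genes). Bop1, of the Pes1-Bop1-Wdr12 complex, had 71.9, 90.1 and 75.6 CPM in mastoparan, paraquat and control, and 178 and 167 in CypD and Flag. It was 2.21 times lower in the day-8 control than in Flag (1.88 to 2.60). Ebna1bp2, the highest of the group in mean TPM, had 167, 172 and 155 CPM at day 8 and 247 and 235 at day 4 (1.51 times lower, 1.34 to 1.71). For both of these genes the days stood far apart and the treated libraries close to the control. Ddx18, an RNA helicase, had 101, 87.5 and 83.7 CPM at day 8 and 141 and 135 at day 4. Rrp1b had 60.4, 53.3 and 66.2 CPM at day 8 and 99.9 and 105 at day 4, which is 1.59 times lower in the day-8 control than in Flag (1.32 to 1.91). On deposited TPM its log2 ratio was 0.19 in place of -0.66, as its deposited mean transcript length was 1791 in the control and 3326 in Flag. Nop16 showed the smallest day difference of the list, with 171, 199 and 169 CPM at day 8 and 202 and 171 at day 4. Nop2, a ribosomal RNA methyltransferase, Ftsj3, another, and Gnl3 (nucleostemin, a GTPase of stem and dividing cells) were 1.56 to 1.61 times lower in the day-8 control than in Flag.

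The 5 abundant and multifunctional proteins were lower too (49.7% of all genes), with a median of -0.54. Npm1 (nucleophosmin), a histone chaperone, had 2839, 2598 and 2529 CPM in mastoparan, paraquat and control, and 3126 and 3047 in CypD and Flag. Ncl (nucleolin) had 1447, 1514 and 1339.7 CPM at day 8 and 2190.4 and 1921 at day 4. Their high counts gave narrow intervals, with Npm1 1.20 times lower in the day-8 control than in Flag (1.17 to 1.24) and Ncl 1.43 times lower (1.37 to 1.49). Ncl was also 1.14-fold higher in CypD than in Flag (1.10 to 1.18). Ddx21, a helicase, had 123, 111 and 120.0 CPM at day 8 and 244 and 254 at day 4 (2.11 times lower, 1.86 to 2.41). Nolc1, a snoRNP chaperone, and Mybbp1a were 1.63 and 1.45 times lower.

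Some partners within a complex stood in another ratio to each other at day 8 than at day 4. Counts of Bop1 over those of Pes1 were 1.78 times lower in the day-8 control than in Flag (1.45 to 2.19) and those of Bop1 over Wdr12 1.69 times lower (1.31 to 2.18), while Pes1 over Wdr12 had a ratio of 1.05 (0.842 to 1.32). Dkc1 over Nop10 was 1.81 times lower (1.46 to 2.25), and Dkc1 over Nhp2 1.53 times lower (1.25 to 1.88). Polr1b over Polr1c was 1.73 times lower (1.34 to 2.23), and Rrp12 over Nob1 2.86 times lower (1.93 to 4.28). For other pairs the interval held no difference between days, with ratios of 0.943 for Nop56 over Nop58 (0.818 to 1.09), 0.833 for Dkc1 over Gar1 (0.641 to 1.08), 1.32 for Polr1a over Polr1b (0.997 to 1.76) and 0.646 for Rrp12 over Bysl (0.411 to 1.01). Such ratios within a library do not depend on how libraries are scaled. The trend along transcript length given below was not removed from them, and partners differ in length. Dkc1 has a mean of 2747 bases, Nhp2 865, Nop10 1109 and Gar1 628. The ratios show unequal differences and not which partner stayed the same. In paraquat against control, Dkc1 over Nhp2 was 1.67 times lower (1.32 to 2.11) and Dkc1 over Nop10 1.55 times lower (1.21 to 1.98). In CypD against Flag the same ratios were 1.24 times lower (1.05 to 1.48) and 1.28 times lower (1.06 to 1.54). For Dkc1 over Gar1 the interval held no difference in either comparison. It was 1.33 times lower in paraquat against control (0.984 to 1.80) and 1.12 times lower in CypD against Flag (0.895 to 1.40).

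**Figure D4:**
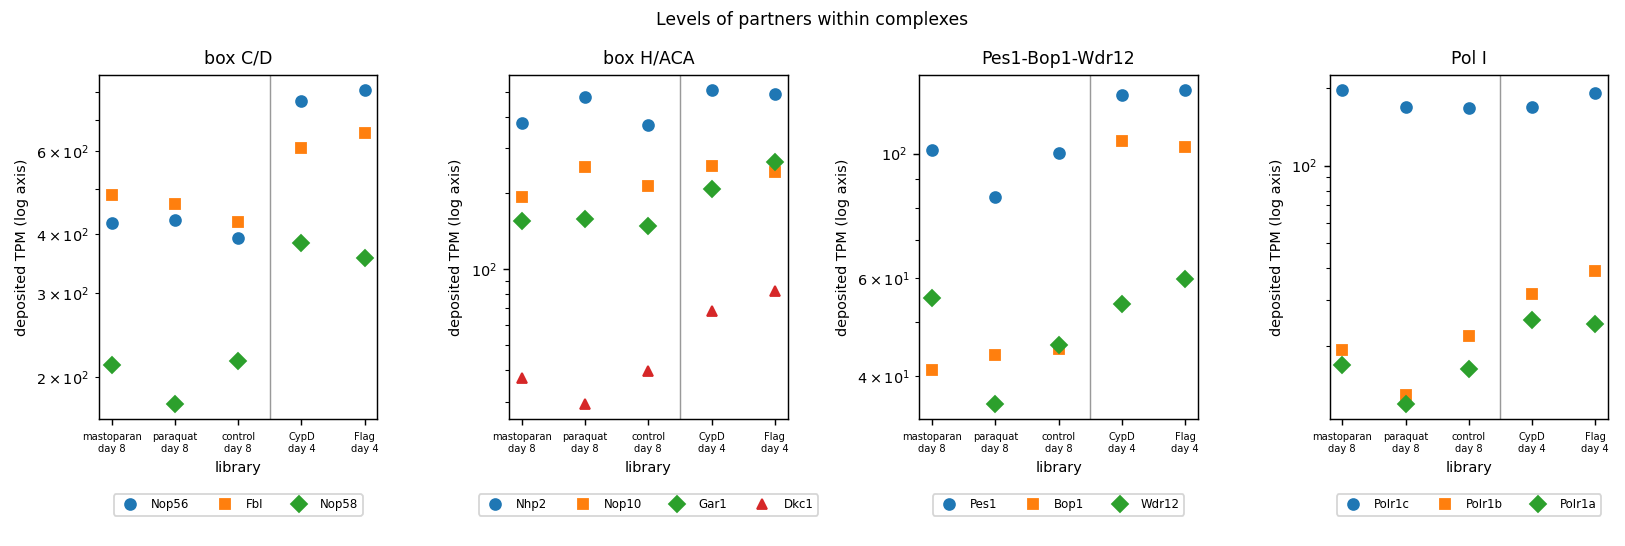
Deposited TPM (log axis, own scale per panel) of partners in 4 complexes in each library, with day 8 left and day 4 right of the line. Bop1 stands near 41.1 to 44.8 TPM at day 8 and above 100 TPM at day 4, while Pes1 and Wdr12 differ less.

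Across the 40 genes, Spearman's rho between the mean deposited transcript length and the log2 ratio was -0.62 in paraquat against control, -0.49 in mastoparan against control and -0.42 in the day-8 control against Flag. Over all tested genes it was -0.38, -0.09 and -0.14 in the same order. In CypD against Flag it was -0.28 (-0.18 over all genes), and in mastoparan against paraquat it had the opposite sign, 0.39 (0.34 over all genes). Genes of 1 library pair share its depth, so these are descriptions without a test. Nhp2 (mean length 865 bases), Nop10 (1109) and Fbl (1159) had the 3 highest log2 ratios in paraquat against control. With the trend of all genes along length removed, their log2 ratios in paraquat against control were 0.28, 0.32 and 0.20, in place of 0.64, 0.53 and 0.42, and no gene of the list passed 1.5-fold. Gar1 (628 bases) was at -0.14 in place of 0.32. Utp18 (2616 bases) was at -0.41 in place of -0.48. The day difference had the same size without the trend, with a median of -0.64 and 24 genes at least 1.5-fold lower.

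**Figure D5:**
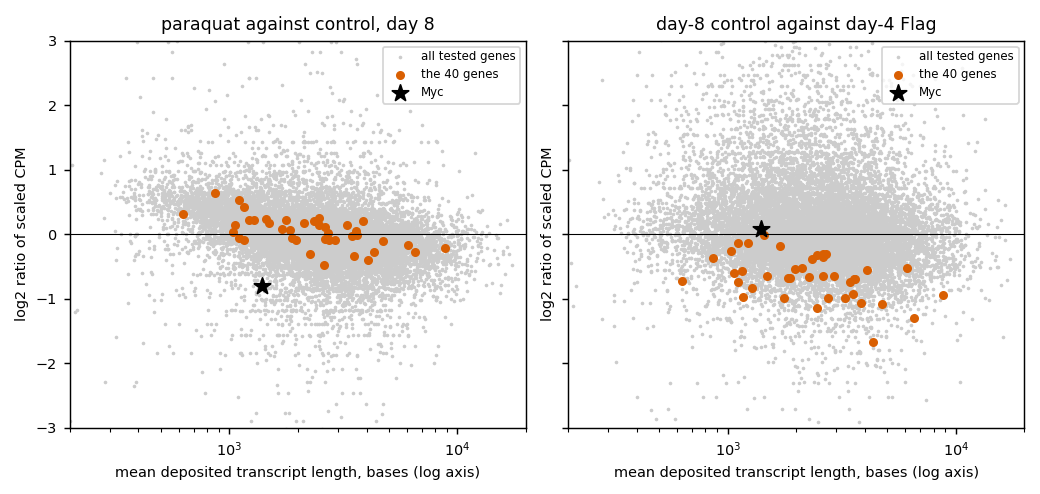
log2 ratio of scaled CPM against mean deposited transcript length (log axis, bases) for all tested genes (grey), the 40 genes (orange) and Myc (star), within the plotted range of log2 ratios. On the left, in paraquat against control, the ratio declines with length (rho -0.62 over the 40 genes), and on the right the 40 genes lie below 0 at every length.

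Myc had 3912, 1908 and 4448 counts in mastoparan, paraquat and control at day 8, or 1373, 827 and 1443 CPM, and 3857 and 3445 counts in CypD and Flag, or 1117 and 1359 CPM. Introduced and endogenous copies cannot be told apart in these counts. The paraquat library was the lowest, 1.75 times below the day-8 control (1.65 to 1.84), while the summed counts of the 40 genes were 1.08-fold higher in paraquat than in control (1.06 to 1.10) and their shares of all counts nearly equal. In CypD against Flag Myc was 1.22 times lower (1.16 to 1.27) and the sum of the 40 genes 1.03-fold higher (1.01 to 1.04), but without Npm1 and Ncl the ratio of the sums was 0.997 (0.978 to 1.02). Between days the sum was 1.42 times lower in the day-8 control than in Flag, and Myc 1.06-fold higher (1.01 to 1.11). Pou5f1 and Sox2, reprogramming genes like Myc, had log2 ratios of -0.72 and -0.85 in paraquat against control. Among Myc's partners and antagonists, Mxd1, a repressor that competes for Max, had 80, 59 and 106 counts at day 8 and 36 and 23 at day 4, a log2 ratio of 1.86 in the day-8 control against Flag. Mxi1, of the same family, had 402, 256 and 415 counts at day 8 and 269 and 201 at day 4 (log2 ratio 0.76), and Mxd3 was at -0.70. Max, the common partner, was at -0.09 between days, and Mycn had at most 2 counts. Of the 10 genes tested on this list, Myc included, 3 lay above and 7 below 0 (50.2% and 49.7% of all genes). Their median was -0.13, with 2 at least 1.5-fold higher and 1 lower (19% and 12.8% of all genes). The 8 genes with an E-box in the promoter window had day log2 ratios from -0.98 (Ltv1) to -0.31 (Pes1). The other 28 with a promoter ran from -1.30 (Heatr1) to -0.02 (Nop16). Ranges of unequal groups, from a list that was lower throughout, cannot decide whether the E-box plays a part, which was not tested.

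A further list of 95 ribosome biogenesis genes outside the 40 gave a smaller day difference. Of these, 84 were below 0 in the day-8 control against Flag and 27 at least 1.5-fold lower (49.7% and 12.8% of all genes). Their median log2 ratio was -0.40 and their summed counts were 1.24 times lower (1.22 to 1.27). In 71 all 3 day-8 libraries lay below both day-4 libraries, and in 4 above (28.1% and 28.5% of all genes). In paraquat against control 1 was at least 1.5-fold higher and 4 lower (8.15% and 10.5% of all genes), with a median of 0.04. The lowest were Noc3l (20 against 54 counts, log2 ratio -0.97), Nol8 (-0.69), Sdad1 (50 against 105 counts, -0.64) and Esf1 (-0.60), all nucleolar proteins, followed by Ttf1 (-0.56), which ends RNA polymerase I transcription, and Nol10 (-0.52). Imp3, of the processome, was the highest (488 against 429 counts, 0.60), with Mrto4, a factor of the large subunit, at 0.54. In CypD against Flag 0 of the 95 passed 1.5-fold (5.22% higher and 5.75% lower among all genes). In mastoparan against control 0 passed it either (5.01% and 5.87%).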

How the data were processed

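Total RNA was extracted with Trizol for TruSeq RNA libraries, per the labels' protocols. Bowtie2 2.2.5 and mm10 were used, per the submitters' processing notes. What counted the reads, with which annotation, is not given in the sources used here. Deposited tables give an expected count, a TPM, an FPKM and a transcript length for each gene, per the file headers. The FPKM deposited by the authors was not used.

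Of 29267 gene IDs, 28756 had a symbol in the GRCm38 annotation used here. Expected counts were rounded and scaled with TMM factors (0.951 to 1.02) from edgeR 4.0.16 in R 4.3.3. The log2 ratio is that of scaled CPM plus 0.5, for genes that average 1 CPM or more in the libraries of the days compared. Folds are ratios of scaled counts with exact Clopper-Pearson 95% intervals, which cover counting error only. Amplified reads are not independent molecules, so the intervals can be too narrow even for that error. A floor of 3 counts equals 0.869 to 1.30 CPM. Other settings were library totals, DESeq2 1.42.0 size factors, upper-quartile factors, deposited TPM, other filters and pseudocounts, and removal of trends along length and GC content in 40 bins. Shared sequence was counted in 49-base windows of 82533 of the 84205 transcripts.

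The 40 genes and the other lists were chosen with earlier results of these data known. Values in every library are given for Myc, and by role group for the gene with the highest mean TPM and up to 3 with the largest within-day log2 ratio at 5 CPM or more, and others where a sentence turns on them. Of the other ribosome biogenesis genes, 8 are named by their log2 ratio in paraquat against control. The code was tested on simulated counts. Python 3.11.15, numpy 2.4.6, scipy 1.17.1, pandas 2.3.3 and matplotlib 3.10.9 were used.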

Additional observations from a re-analysis of the deposited data

How the results depend on the processing

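No paired analysis was possible because each group has 1 library and no replicate numbers are shared. The Myc ratios kept their values within counting error under the settings run, with the exceptions given here. Medians and counts past 1.5-fold were not judged by counting error. A median was taken as kept within a range set by the spread among the 40 genes. A count past 1.5-fold was taken as kept by its size alone, whatever the genes or their direction. Their exceptions are also given here. The cause of the exceptions was not tested beyond what each setting removes. On deposited TPM the median log2 ratio of the 40 genes was -0.064 in CypD against Flag, -0.26 in paraquat against control and 0.26 in mastoparan against paraquat. TPM moved the median of all genes to -0.28 in paraquat against control and 0.22 in mastoparan against paraquat, and library totals alone moved it to -0.13 in paraquat against control. In paraquat against control 0 of the 40 passed 1.5-fold with the length trend, or the length and GC trends, removed, and 3 did on deposited TPM, all lower (22.1% of all genes), or on TPM with the median of all genes subtracted, all higher. In mastoparan against paraquat 1 passed with library totals alone and with either trend removal, in place of 2. With upper-quartile factors and on centred TPM 3 passed, 1 higher and 2 lower (8.55% and 9.13% of all genes lower, in that order). On deposited TPM 3 passed, all higher. The share of all genes at least 1.5-fold higher was not computed under these other settings.

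Myc in paraquat against control was at -0.91 with library totals alone, -0.89 with the length trend removed, -0.89 with length and GC trends removed and -1.10 on TPM, in place of -0.80. In mastoparan against paraquat it was at 0.82, 0.83 and 0.98 with the length trend removed, both trends removed and on TPM, in place of 0.73. Between days Myc had no stable direction, at 0.09 in control against Flag, -0.032 with length and GC trends removed, 0.37 with CypD in place of Flag, and 0.014 and -0.72 with mastoparan and paraquat in place of control. Rrp1b between days was reversed on deposited TPM (0.19) and on TPM with the median of all genes subtracted (0.23). Of 2715 further values of single genes under other settings, 137 moved beyond counting error, and 2 that had passed 1.5-fold, both of Rrp1b between days, reversed. Depth limits genes such as Rrp12, whose day-8 libraries hold 27 to 44 counts.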
